A study of Homo sapiens with 2 samples.

Results

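The 39 genes described here encode proteins of G2 phase and mitosis: cyclins and kinases of mitotic entry, spindle checkpoint and kinetochore proteins, the chromosomal passenger complex, spindle motors, and proteins that condense and separate chromosomes. They were given as a list of gene symbols, drawn up with earlier results of these data known, and all 39 were found among the 19061 genes that the probes of the array could be named for. Probes were named by matching the RefSeq transcript of each probe to RefSeq's gene table of the GRCh38.p14 assembly. The 39 genes had 48 probes and 150 spots per array, and the scanner software marked all 48 as well above background on each array.

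The cells were SBC-3, an established adherent line of small-cell lung cancer (SCLC). They were transfected either with #1 siHOTAIR, a small interfering RNA against the long noncoding RNA HOTAIR, or with siGFP, which targets green fluorescent protein and served as the control. The labels name no other treatment and no alteration of the line, and how long after transfection the array RNA was taken is not given in the sources used here. Each RNA was read on 1 one-colour Agilent array, so that no P-value could be had and effects of the siRNA cannot be told apart from those of the culture or the array. The study asked how HOTAIR depletion changes transcription related to proliferation and invasiveness. It reported that #1 siHOTAIR lowered both in these cells, whereas other siRNAs that also reduced HOTAIR did not. Only #1 siHOTAIR was read on an array, so effects of its sequence cannot be told apart from those of HOTAIR depletion.

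Cells enter mitosis when CDK1 bound to B-type cyclins becomes active, driven by CDC25 phosphatases, Polo-like and Aurora kinases and the transcription factor FOXM1. The spindle checkpoint then holds the anaphase-promoting complex and its activator CDC20 inactive until every kinetochore is attached, after which securin and cyclin B are degraded and separase splits the sister chromatids. Most of these genes are transcribed late in the cell cycle, under the DREAM and MuvB complexes and NF-Y, which act at the cell cycle homology region (CHR) and the CCAAT box of their promoters. In a bulk culture a higher share of cells in G2 and mitosis cannot be told apart from more RNA per such cell.

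The promoters of 6 of these genes are shown, among them those of the members with the lowest and the highest ratios. CDK1, with a lower ratio than CCNB2, is not shown. The promoters were picked as examples, so what they hold is no result about lower and higher genes. Each is the 250 bases before the transcription start in RefSeq's GRCh38.p14 table, written 5′ to 3′ on the strand of the gene, and capitals mark CHR elements (TTTGAA or TTCGAA) and CCAAT boxes on either strand. The first 2 genes read lower in #1 siHOTAIR-transfected cells and the other 4 read higher.
HMMR (chr5:163460382-163460631, plus strand): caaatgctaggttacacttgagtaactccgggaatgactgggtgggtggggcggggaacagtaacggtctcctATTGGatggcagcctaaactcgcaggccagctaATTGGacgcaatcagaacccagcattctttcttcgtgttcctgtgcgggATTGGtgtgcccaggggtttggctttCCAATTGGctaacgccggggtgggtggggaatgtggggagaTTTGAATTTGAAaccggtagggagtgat
CCNB2 (chr15:59104896-59105145, plus strand): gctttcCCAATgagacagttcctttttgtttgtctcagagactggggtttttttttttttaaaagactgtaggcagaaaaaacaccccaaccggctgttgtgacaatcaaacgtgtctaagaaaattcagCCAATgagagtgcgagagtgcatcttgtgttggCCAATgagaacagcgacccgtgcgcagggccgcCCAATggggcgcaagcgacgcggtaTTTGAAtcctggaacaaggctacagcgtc
MKI67 (chr10:128126424-128126673, minus strand): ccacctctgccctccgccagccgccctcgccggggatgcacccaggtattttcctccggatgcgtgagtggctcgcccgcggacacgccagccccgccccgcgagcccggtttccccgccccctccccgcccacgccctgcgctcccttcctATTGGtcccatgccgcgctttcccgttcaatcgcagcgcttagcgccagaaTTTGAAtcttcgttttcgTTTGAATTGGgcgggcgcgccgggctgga
TOP2A (chr17:40417897-40418146, minus strand): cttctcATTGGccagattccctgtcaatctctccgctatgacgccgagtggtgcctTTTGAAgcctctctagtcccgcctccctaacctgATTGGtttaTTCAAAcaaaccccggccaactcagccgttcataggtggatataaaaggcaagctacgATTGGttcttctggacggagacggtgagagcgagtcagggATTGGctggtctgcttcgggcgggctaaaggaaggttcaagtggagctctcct
KIF4A (chrX:70289854-70290103, plus strand): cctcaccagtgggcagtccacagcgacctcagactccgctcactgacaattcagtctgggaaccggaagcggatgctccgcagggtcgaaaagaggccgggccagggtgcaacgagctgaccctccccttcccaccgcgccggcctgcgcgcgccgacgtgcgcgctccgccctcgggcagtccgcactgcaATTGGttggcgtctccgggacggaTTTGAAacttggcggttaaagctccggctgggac
KIF20A (chr5:138178862-138179111, plus strand): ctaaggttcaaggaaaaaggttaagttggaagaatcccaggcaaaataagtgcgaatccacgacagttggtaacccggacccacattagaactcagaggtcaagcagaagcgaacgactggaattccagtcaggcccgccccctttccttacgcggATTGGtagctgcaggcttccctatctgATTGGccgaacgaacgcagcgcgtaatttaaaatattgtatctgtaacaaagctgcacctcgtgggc

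The lower genes HMMR and CCNB2 and the higher gene MKI67 each held a CHR element within 50 bases of the start. Counted to the leftmost base of the element, with -1 for the base just before the start, it lay at -29 in CCNB2, at -28 and -22 in HMMR, and at -47 and -29 in MKI67. KIF4A held 1 at -34, whereas the 2 elements of TOP2A lay farther away, at -194 and -151. KIF20A held none of these letters in this window. CCAAT boxes were found at 5 places in HMMR, 4 in CCNB2, 4 in TOP2A, 2 in MKI67, 2 in KIF20A and 1 in KIF4A. In HMMR, 2 of them shared bases, at -69 and -66, and in MKI67 the box at -24 shared a base with the CHR element at -29.

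Promoters were listed for 32 of the 39 genes, and the elements were counted in 250 bases before and 50 bases after the start. AURKA, BIRC5, BUB3, FOXM1, TPX2, TROAP and TTK had no entry in the table used. A CHR element was present in 25 of the 32 genes (78.1%), against 19.5% of the 27305 genes with a promoter of the same length. A CCAAT box was present in 27 (84.4%), against 39.7%, and both elements in 22 (68.8%), against 7.85%. Some genes had several promoters. Counted by promoter, 27 of the members' 41 held a CHR element (65.9%) and 32 a CCAAT box (78.0%), against 16.4% and 34.6% of all 35116. Among 35 promoters of DNA replication genes, which are expressed earlier in the cycle, 2 held a CHR element (5.71%) and 23 a CCAAT box (65.7%). A match to these letters is a description of the sequence and not a measured binding site. Genes with and without a CHR element overlapped in their ratios. The median log2 ratio was 0.17 for the 25 genes with a CHR element and 0.18 for the 7 without one, with ranges of -0.77 to 0.74 and -0.09 to 0.60.

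HOTAIR itself, the target of the siRNA, was read from 1 spot at 108 in #1 siHOTAIR-transfected cells against 244 in control cells, a log2 ratio of -1.22 (measurement SE 0.14). A log2 ratio is the log2 signal of #1 siHOTAIR-transfected cells minus that of siGFP-transfected cells, each taken relative to its array's 75th percentile, which was 650 and 630. The SE covers repeated spots within the arrays and not the spread between cultures. The probes of the reference genes ACTB and GAPDH lay between -0.05 and 0.00. Of 58717 spots on each array, 55.5% and 58.3% were well above background, and both arrays lay on 1 slide and were read in 1 scan. Of 12 markers of SCLC and neuroendocrine cells, 6 were well above background in #1 siHOTAIR-transfected and 4 in siGFP-transfected cells, with summed signals of 8218 and 8542. Markers not above background on either array included GRP, INSM1, POU2F3, SYP and UCHL1. Epithelial markers summed to 3313 and 3181, with 3 of 5 well above background on each array and CDH1 on neither. The 3 were not the same, since KRT19 (39.4 against 27.0) was so in #1 siHOTAIR-transfected cells alone and EPCAM (9.19 against 25.1) in siGFP-transfected cells alone. Fibroblast markers summed to 4619 and 4176 (2 of 5, COL1A1 and COL1A2), and blood cell markers to 343 and 276 (3 of 5). Single markers differed more than these sums, with log2 ratios of -0.85 for NEUROD1 (213 against 372), 0.96 for COL1A1 (832 against 414), 0.75 for PTPRC (106 against 61.0) and 0.63 for CD68 (88.3 against 55.4). NEUROD1 did not stand for its list, where 3 of the 6 markers compared lay above 0 and 3 below. CHGA (log2 ratio 2.78) and NCAM1 (1.78) read higher, but were well above background in #1 siHOTAIR-transfected cells alone. DLL3 had 0.21 and ENO2 -0.36. YAP1, at 6522 and 6750, made up most of the first sum, and COL1A2, at 3758 and 3741, most of the fibroblast sum. The part of other cells in the results below was not tested.

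The mitotic and G2/M genes read slightly higher as a group in #1 siHOTAIR-transfected cells, and none of the 39 reached a 2-fold difference. Their median log2 ratio was 0.17, or 1.12-fold, with quartiles of 0.02 and 0.36 and a range of -0.77 for HMMR to 0.74 for MKI67. Over all 13014 named genes compared the median was 0.02, and over the 12031 detected above background by both arrays, as all 39 were, it was 0.03. A log2 ratio above 0 was found for 32 of the 39 genes (82.1%), where the share was 52.3% over all genes and 54% over those on both arrays. At a 2-fold threshold 0 of the 39 genes were called, whereas 2.74% of all genes were at least 2-fold higher and 3.41% at least 2-fold lower (1.4% and 1.48% of those on both arrays). At 1.5-fold, KIF20A, MKI67 and TOP2A were higher (7.69%, against 8.12% of all genes and 6.82% of those on both arrays) and HMMR was lower (2.56%, against 8.71% and 5.95%). The members' share above 0 thus exceeded that of all genes on these arrays, while their shares past 1.5-fold were near the background or below it. The SD over the 39 genes was 0.28, against 0.41 over the genes on both arrays, which were not matched to them in signal.

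Measured against the precision of the spots, 24 of the 39 genes were higher by more than 2 SEs (61.5%, against 31.2% of all genes and 31.8% of those on both arrays), and 4 were lower, namely HMMR, CDK1, CCNB2 and PTTG1 (10.3%, against 27.8% and 26.5%). The SEs of the members had a median of 0.04 and ran from 0.01 to 0.10. SEs were larger for dim probes, and the genes compared included dimmer ones than these 39. The shares past 2 SEs were thus not set side by side at like signal. Log2 ratios were small in many, and 12 genes, PTTG1 among them, had values between -0.1 and 0.1. Among the 30 member probes with 2 spots, both spots read higher in 23 and lower in 4, and the spots were of opposite sign in 3, which belonged to BUB3, CDC25C and PRC1. Over all 5038 compared probes with 2 spots, both read higher in 44.9% and both lower in 37.1%.

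**Figure D1:**
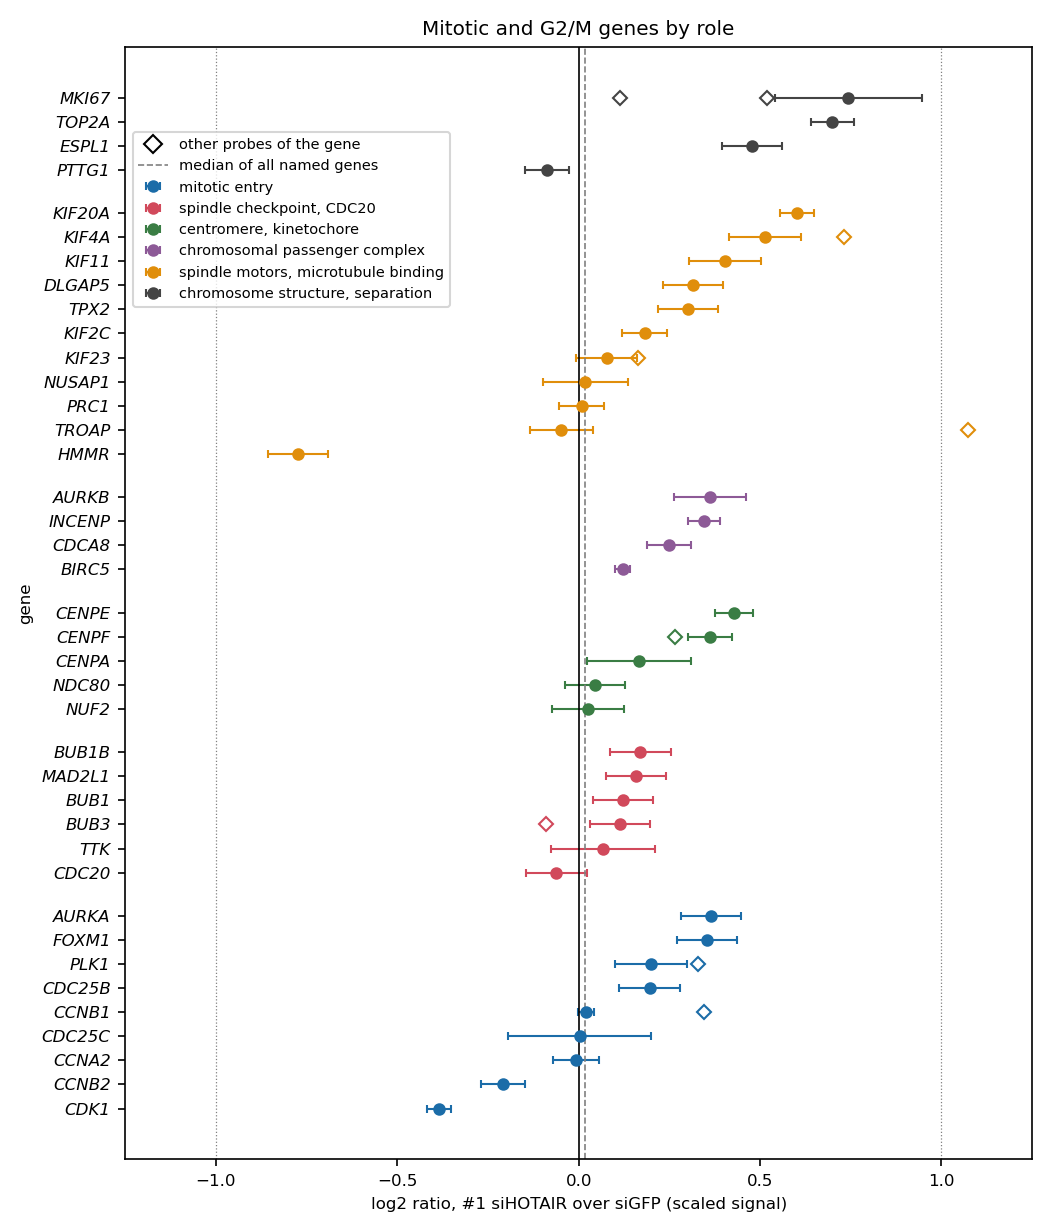
Log2 ratio of #1 siHOTAIR-transfected over siGFP-transfected cells for each of the 39 genes, grouped by role. Filled circles are the brightest probe of each gene with bars of 2 measurement SEs, open diamonds are other probes of the same gene, and dotted lines mark 2-fold. Most circles lie to the right of 0, HMMR stands alone at -0.77, and only the second probe of TROAP passes a dotted line.

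Genes of mitotic entry differed from one another in direction, and their median of 0.02 was that of all genes to 2 decimals. CDK1, the kinase that drives entry into mitosis, read lower. Its probe had 10 spots, and the 9 that could be used on both arrays gave signals of 3349 to 3623 (median 3539) in #1 siHOTAIR-transfected cells against 4222 to 4593 (median 4486) in control cells. All 9 spots were lower and the ranges did not overlap. The log2 ratio was -0.37 (SE 0.02) over these 9 spots and -0.38 with every usable spot of each array, the value used for the gene. CCNB2, 1 of the 2 B-type cyclins that activate CDK1, had spots of 8471 and 8535 against 9171 and 9872, a log2 ratio of -0.21 (SE 0.03). Both of its spots were lower in #1 siHOTAIR-transfected cells.

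CCNB1, the other B-type cyclin, did not read lower. Its probe with 10 spots read 8083 to 9562 in #1 siHOTAIR-transfected cells against 7644 to 8992 in control cells, with 7 spots higher and 3 lower after scaling and a log2 ratio of 0.02 (SE 0.01). A second CCNB1 probe with 1 spot read 4425 against 3375, a log2 ratio of 0.34. CCNA2, the A-type cyclin of S and G2 phase, also averaged near 0, with a log2 ratio of -0.01 (SE 0.03). It read 1267 to 1443 against 1186 to 1428, with 5 of its 10 spots higher and 5 lower. The spots in rows 2 to 139 of the array were higher (0.05 to 0.12) and those in rows 287 to 368 lower (-0.06 to -0.19). Rows 181 and 244 between them gave -0.03 and 0.07. The part of array position in this was not tested. The activating phosphatase CDC25C read 324 against 313 (0.00), and its 2 spots had opposite signs.

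The remaining regulators of entry read higher. AURKA, the Aurora kinase of the centrosome, had spots of 3399 and 3528 with #1 siHOTAIR against 2580 and 2631 in control cells, a log2 ratio of 0.36. FOXM1, the transcription factor that activates many of these genes, read 5136 and 5350 against 3969 and 3977, a log2 ratio of 0.35. The Polo-like kinase PLK1 had log2 ratios of 0.20 and 0.33 on its 2 probes, and CDC25B had 0.20. In all, 6 of the 9 entry genes lay above 0.

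The spindle checkpoint genes showed small differences. Their median was 0.12 over 6 genes, of which 5 lay above 0. BUB1B, which builds the complex that inhibits CDC20, had a log2 ratio of 0.17, and MAD2L1, another part of that complex, had 0.16. The checkpoint kinases BUB1 and TTK had 0.12 and 0.07. For BUB3, which brings BUB1 to kinetochores, the 2 probes differed in sign, at 0.11 and -0.09. CDC20, the target of the checkpoint, had signals of 4354 and 4401 and a log2 ratio of -0.06 (SE 0.04).

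All 5 centromere and kinetochore genes lay above 0, with a median of 0.17. CENPE, the kinesin that moves chromosomes to the metaphase plate, gave 9 usable spots of 1085 to 1215 in #1 siHOTAIR-transfected cells against 783 to 884 in control cells. Every one of them was higher, the ranges did not overlap, and the log2 ratio was 0.43 (SE 0.03). CENPF, a large protein of the outer kinetochore, had 0.36 and 0.26 on 2 probes. CENPA, the histone variant that marks the centromere, had 0.17, while NDC80 and NUF2, subunits of the complex that holds microtubule ends, had 0.05 and 0.03.

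The 4 genes of the chromosomal passenger complex, which corrects wrong attachments and later acts in cytokinesis, lay above 0 as well, with a median of 0.30. INCENP, its scaffold, read 865 to 1055 over 10 spots in #1 siHOTAIR-transfected cells against 658 to 806 in control cells, higher at 10 of 10 spots and with separate ranges (log2 ratio 0.35, SE 0.02). The kinase subunit AURKB had a log2 ratio of 0.36, although its 2 spots differed, at 0.24 and 0.48, and CDCA8, a targeting subunit also called borealin, had 0.25. BIRC5, or survivin, was higher at 10 of 10 spots by a small amount, with signals of 26073 to 29832 against 23689 to 26483 and a log2 ratio of 0.12 (SE 0.01). Its ranges overlapped.

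**Figure D2:**
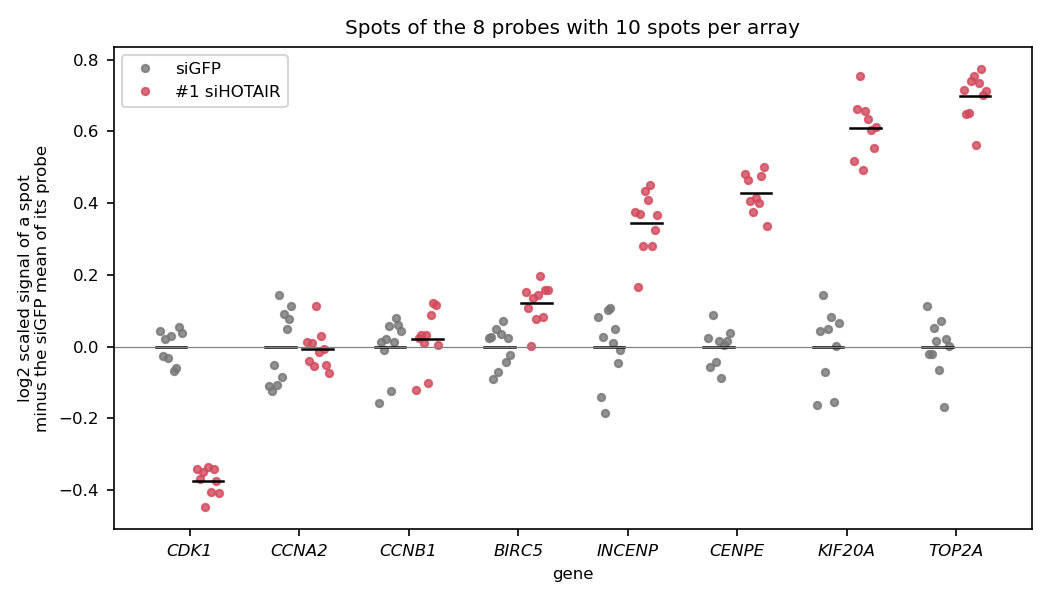
Log2 scaled signal of single spots for the 8 genes whose probe was printed at 10 places, set against the mean of the siGFP spots of the same probe (vertical axis, log2 units; lines are means). The red #1 siHOTAIR spots lie wholly below the grey siGFP spots for CDK1, wholly above them for INCENP, CENPE, KIF20A and TOP2A, and among them for CCNA2 and CCNB1, while those of BIRC5 overlap in part.

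The widest spread was found among the spindle motors and microtubule-binding proteins, where 9 of 11 genes lay above 0 and the median was 0.18. HMMR, a hyaluronan-binding protein that also attaches to spindle microtubules and spindle poles, was the lowest of the 39 genes. Its 2 spots read 2652 and 2697 with #1 siHOTAIR against 4385 and 4471 in control cells, a log2 ratio of -0.77 (SE 0.04), with -0.77 and -0.78 from the single spots. KIF20A, the kinesin that carries the passenger complex to the central spindle, was among the highest. Over 9 usable spots it read 323 to 387 against 199 to 245, all higher and with separate ranges, and its log2 ratio was 0.61 (SE 0.02) over these spots and 0.60 with every usable spot of each array.

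KIF4A, a kinesin of chromosome arms and the central spindle, gave 1177 and 1142 with #1 siHOTAIR against 723 and 855 in control cells, a log2 ratio of 0.51 (SE 0.05). The single spots gave 0.66 and 0.37, a wider spread than this SE reflects, since it was taken from other probes of similar signal. The second KIF4A probe, with 1 spot, read 343 against 200 and gave 0.73. Of the other genes in this group, KIF11, the motor that pushes spindle poles apart, had a log2 ratio of 0.40, DLGAP5, which stabilises kinetochore fibres, 0.32, and TPX2, the activator of AURKA on the spindle, 0.30. The microtubule depolymerase KIF2C had 0.18. The central spindle proteins KIF23 and PRC1 had 0.08 and 0.01, and the microtubule bundler NUSAP1 had 0.02.

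TROAP, a protein needed for bipolar spindles, was measured by 2 probes that disagreed. The brighter probe, for 1 RefSeq transcript, read 5812 in #1 siHOTAIR-transfected cells against 5817 in control cells, a log2 ratio of -0.05 (SE 0.04). The probe for another transcript read 2706 against 1245, a log2 ratio of 1.07, and was the single probe among the 48 that reached 2-fold (over all named probes 2.8% were at least 2-fold higher and 3.5% lower). Each of them had 1 spot. Of the 48 probes 40 lay above 0 (83.3%, against 52.5% of all named probes). TROAP is in the list of changed genes that the study chose on these same samples, so the ratio of its second probe is no independent evidence. Across genes with several probes, the distance between the lowest and the highest log2 ratio was 1.12 for TROAP, 0.63 for MKI67, 0.32 for CCNB1 and 0.22 or less for the other 5.

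Genes of chromosome structure and separation held the 2 highest ratios. MKI67, which encodes the Ki-67 protein that coats mitotic chromosomes and is used to mark proliferating cells, read 972 in #1 siHOTAIR-transfected cells against 563 in control cells on its brightest probe, a log2 ratio of 0.74 (SE 0.10) from 1 spot. A second probe of 1 spot read 403 against 272 (0.52, SE 0.14), and another of 2 spots read 157 against 141 (0.11, SE 0.10). All 3 were higher, by unequal amounts and the last by less than 2 SEs, although they were designed for the same transcript. TOP2A, the topoisomerase that untangles sister DNA, read 841 to 975 over 10 spots against 491 to 597, higher at 10 of 10 spots with no overlap, and had a log2 ratio of 0.70 (SE 0.03).

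ESPL1, or separase, the protease that cuts cohesin at anaphase, had spots of 2966 and 3210 with #1 siHOTAIR against 2123 and 2167 in control cells, a log2 ratio of 0.48 (SE 0.04). PTTG1, or securin, which holds separase inactive, did not follow it. Its spots read 22540 and 22928 against 23526 and 23242, a log2 ratio of -0.09 (SE 0.03).

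**Figure D3:**
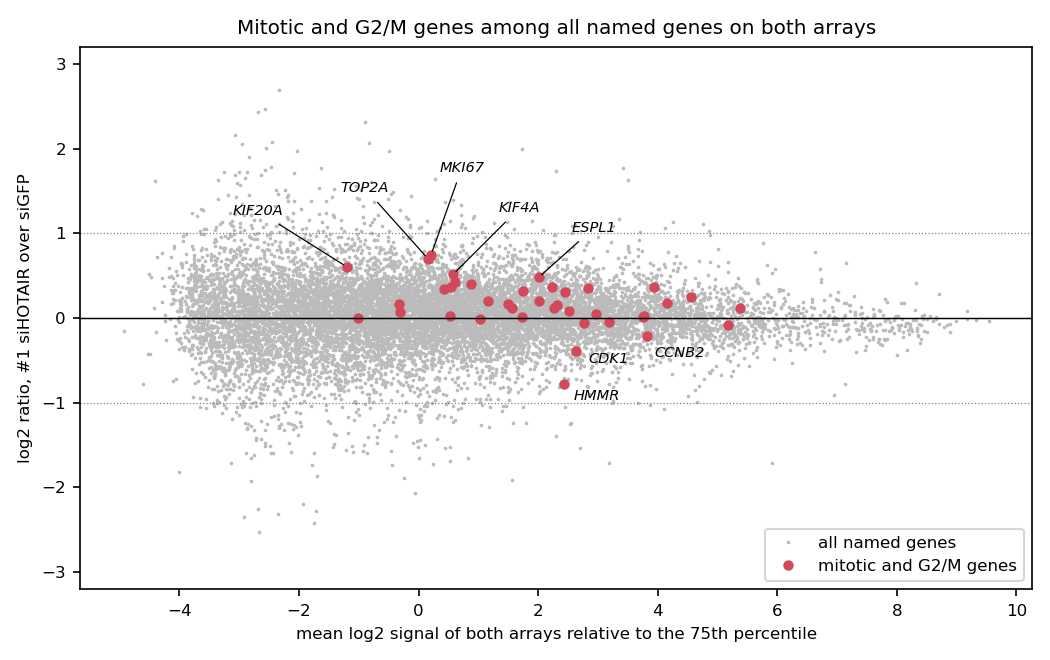
Log2 ratio (vertical axis) against the mean log2 signal of both arrays relative to the 75th percentile (horizontal axis) for the 39 genes in red and for the other named genes well above background on both arrays in grey; 1 gene lies outside the axis. The red points lie within the grey cloud and mostly above 0 at low and at high signal, with HMMR, CDK1 and CCNB2 below it.

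Other genes of the mitotic apparatus were read from lists of related proteins. Among 27 further kinetochore subunits 20 lay above 0, with a median log2 ratio of 0.20, and 2 were at least 2-fold higher. Over all genes 52.3% lay above 0 and 2.74% were at least 2-fold higher (54% and 1.4% of those on both arrays). CENPI, an inner kinetochore subunit, read 123 against 58.2 (log2 ratio 1.03, SE 0.32), and its second probe 68.9 against 31.7, of which the siGFP signal was not well above background. CENPP, of the same inner complex, read 1016 against 489 (1.01, SE 0.10) on 1 probe and 705 against 649 (0.07) on another, each with 1 spot. The lowest of this list was CENPH, also an inner subunit, whose 10-spot probe read 613 against 1048 (-0.82, SE 0.03).

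Of 19 other spindle and cytokinesis genes 16 lay above 0, with a median of 0.23 and a range of -0.14 for KIF20B to 0.58 for KIF14, both kinesins of cytokinesis. Of 19 condensin and cohesin genes, which shape and hold chromosomes together, 15 lay above 0, with a median of 0.13. On its brightest probe no gene of either list reached 2-fold. SMC1A, a cohesin subunit, had 1263 against 1608 on that probe (-0.39, SE 0.07, 1 spot), whereas another probe with 2 spots read 232 against 463 (-1.04, SE 0.10), at least 2-fold lower, and a further one 293 against 296 (-0.06). The highest of the second list was SGO2, which protects cohesin at centromeres, with 350 against 191 on 1 spot (0.82, SE 0.14).

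The lists of regulators had medians near 0. Of 17 genes of the anaphase-promoting complex and its enzymes 11 lay above 0 (median 0.02), and of 16 further kinases, phosphatases and inhibitors of entry and exit 8 did (median -0.01). The DREAM, MuvB and NF-Y genes, which encode the regulators of these promoters, had a median of 0.00, with 8 of 16 above 0. The pocket proteins RBL1 and RBL2, which form part of the repressing DREAM complex, were the lowest of them. They read 120 against 199 (-0.77, SE 0.10) and 157 against 227 (-0.58, SE 0.10). The highest were NFYA, with 530 against 375 (0.45, SE 0.07), and E2F7, with 2074 against 1523 (0.40, SE 0.04). Whether these regulators bear on the ratios of the mitotic genes was not tested. None of these 3 lists held a gene that reached 2-fold on a probe well above background.

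Genes of p53 and of CDK inhibitors, several of which stop the cycle, had a median of 0.11 over 13 genes, of which 8 lay above 0. CDKN1A, the p21 inhibitor, read 256 against 337 (-0.44, SE 0.10), and CDKN1B, the p27 inhibitor, 2098 against 1472 (0.46, SE 0.06). CDKN1C was the lowest of the list, with 2642 against 3561 (-0.48, SE 0.04), while CDKN2D, CDKN2C and SFN had 0.43, 0.34 and 0.32. CDKN2B was the only gene of this list past 2-fold, with 29.1 against 6.29, but was well above background in #1 siHOTAIR-transfected cells alone and at a signal too near background to give a fold. The 32 DNA replication genes, transcribed in G1 and S phase, lay on the other side, with a median of -0.08, 11 genes above 0 and 21 below, and a range of -0.47 for GINS4 to 0.40 for ORC1. The difference between these lists was not tested, since each condition had 1 array.

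**Figure D4:**
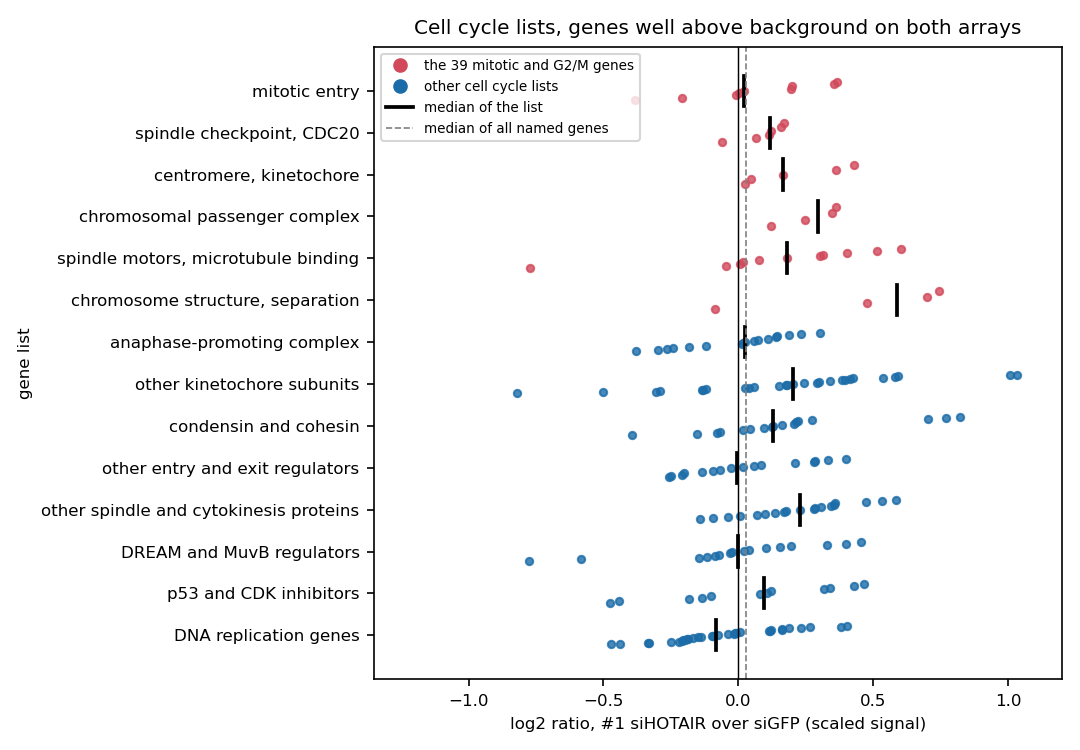
Log2 ratio of each gene well above background on both arrays, in 14 lists of cell cycle genes (1 row per list, points are genes, black lines medians, dashed line the median of all named genes on both arrays). The lists of chromosome structure, passenger complex, kinetochore and spindle genes have medians above the dashed line, and the DNA replication list has a median of -0.08, below it.

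The sign of several small ratios depended on the processing. Scaling to the spike-in RNA raised the median of all named genes by 0.14 and that of the 39 genes to 0.31, so their distance from all genes did not change. Over 10 settings of scaling, background correction, probe choice and array rows, 24 of the 39 genes lay above 0 in each. The share of all genes above 0 in every setting was not computed, and in single settings that share ran from 48.8% to 67.8%. FOXM1 and TTK lay above 0 in the 9 settings that gave them a value, and HMMR, CDK1 and CCNB2 lay below 0 in all 10. Under another scaling 9 genes changed sign, which were CCNA2, CCNB1, CDC20, CDC25C, NUF2, NUSAP1, PRC1, PTTG1 and TROAP. For CDC20 and PTTG1 this was the spike-in scaling alone, which adds the same constant to every gene. The sign of TROAP also turned with the choice of probe and of rows. That of BUB3 turned under other background treatments and no other scaling, to -0.07, -0.07 and -0.10. Its second probe had -0.09 in the values reported. The brightest probe was chosen anew in each setting, so a change of probe cannot be told apart from the background treatment for BUB3. Leaving out the first 37.5% of the rows of the array gave the remaining 37 genes a median log2 ratio of 0.17. Among member probes with 10 spots, CCNA2 moved most, from -0.01 to -0.07. Spots of the 39 genes in those rows had a median log2 ratio of 0.14 with 85.1% above 0. Spots in the other rows had 0.20 with 78.0% above 0, and over all compared probes the shares were 50.9% and 51.3%. The rows hold different genes, so these medians do not show what position does to a ratio.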

How the data were processed

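Gene expression was measured on 2 one-colour arrays (SurePrint G3 Human GE 8x60K), 1 per condition, grouped by the sample labels. The authors labelled RNA with Cy3 and extracted spots with Feature Extraction 10.10.1.1, per the submitters' processing notes. The deposited processed signal is an intensity after background subtraction and detrending, with very low values replaced by a surrogate, and was not normalized between arrays. The authors also deposited a value table of the series, whose intensity equals the background-subtracted signal. The study's analysis in GeneSpring GX 12 used a 2-fold change and a P-value threshold, and the latter could not be repeated with 1 array per condition.

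Here, the array's 75th percentile over non-control spots was subtracted from each log2 processed signal. Outlier spots were left out and the spots of a probe averaged. Probes needed 50% or more of their spots to be well above background on 1 array or both, which left 24117 of 42402 probes and 13014 of 19061 named genes. Names were found for 58.5% of probes (96.8% of those for protein-coding RefSeq transcripts). The probe with the highest mean signal stood for its gene. Changes were called at 2-fold. The measurement SE was the SD of spot ratios of probes with 10 spots, in 6 levels of signal (0.32 at the dimmest, 0.04 at the brightest), divided by the root of the number of spots. Probes with 10 spots used their own SD. No spot was saturated, and the number of arrays limits the precision.

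The 39 genes and all lists were chosen with earlier results of these data known. Genes were named with full signals when they were among the 5 highest or 5 lowest ratios, had a probe past 2-fold or probes at least 1 log2 unit apart, or were MKI67, CDK1, CCNB1, TROAP, HOTAIR, ACTB or GAPDH. Of other lists, genes past 2-fold on both arrays were named, and further genes (among them AURKA, FOXM1, AURKB, CENPE, INCENP, BIRC5, RBL1, RBL2, CENPH, SGO2, CDKN1A, CDKN1B and CDKN2B) were added after their values were seen. Promoters came from RefSeq.

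Alternatives were quantile normalization, scaling to detected probes, to spike-in RNA or not at all, normexp (limma 3.58.1 in R 4.3.3, offset 50), uncorrected signal, the value table with a floor of 10, other filters and thresholds, the median over the probes of a gene, and leaving out the first 37.5% of the rows. Normexp was planned on the mean pixel signal but used the median, since the files used here held no mean. The computation was done in Python 3.11.15 and tested on simulated data.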

Additional observations from a re-analysis of the deposited data

How the results depend on the processing

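With 1 array per condition no replicate could be left out, and no setting gives a test. No paired analysis was possible because each condition had 1 sample. The count of the 39 genes past 2-fold was 0 in the values reported. It was 1 without the spots in the first 37.5% of the array's rows, which removed the brighter TROAP probe and all spots of FOXM1 and TTK and left 37 genes. It was also 1, again TROAP, when every probe was counted by itself and when the probe with the largest change stood for its gene, both chosen after seeing the data. A threshold of 1.5-fold gave 4 genes, 3 higher and 1 lower. The median log2 ratio was 0.31 after scaling to spike-in RNA and 0.21 with no scaling, against 0.17. Over 14 settings it ran from 0.13 to 0.31. The number of genes above 0 ran from 27, with scaling to detected probes, to 36, with spike-in scaling. The share of all genes above 0 moved as well, and was 48.8% and 67.8% in those settings. With no filter the median of the 39 genes exceeded that of all genes by 0.06, the smallest distance of any setting. Signals near background limit ratios of dim probes.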
